A study of Homo sapiens with 414 samples.

Results

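The comparison set neural cultures exposed to Arsenic against cultures exposed to compounds labelled non-toxic, over the first 6 days of exposure. Every library whose compound label is Arsenic was taken, which gave 5 of the 414 libraries of the series, 1 each from days 1, 2, 3, 4 and 6. They were set against all 79 libraries of the 16 non-toxic compounds from the same days, 16 on each of days 1 to 4 and 15 on day 6. The series screened 29 compounds labelled toxic and the 16 non-toxic ones by RNA sequencing of H1-NPC, neural progenitors made from a single human embryonic stem cell line, H1. Cells were seeded in 48-well plates and exposed from the day of seeding, 1 dose per compound, and the wells were lysed in place. Expression was given as TPM, the share of a library's transcripts that come from a gene, scaled to the same total in every library. TPM keeps no read depth, so how deeply the libraries were sequenced is unknown from these values, and a gene listed at 0 is not shown to be absent.

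Arsenic was given at 5 µM, and the labels do not say which arsenic compound it was. The non-toxic compounds were DMSO at 0.1%, Ficoll 400, Fructose, Glycerol, Glyphosate, PEG 3350, Saccharin, Sorbitol and Sucrose at 10 µM each, Acetaminophen at 10 µg/ml, Amoxicillin at 5 µg/ml, Aspirin and Ibuprofen at 20 µg/ml, Glucosamine at 0.4 µg/ml, Naproxen sodium at 30 µg/ml and PVP at 100 µg/ml. Naproxen sodium had 4 libraries and each other compound 5. The other metals of the series, used here where Arsenic is set apart from them, were Cadmium at 50 µM and Lead acetate at 30 µM, with 5 libraries each on the same days. The replicates of a compound were single wells of different days, and the labels do not say whether the wells were separate cultures, so every p-value measures the spread between such wells. Cultures were lysed whole, so fewer cells of a type and less RNA per cell cannot be told apart.

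Trivalent arsenic binds neighbouring thiol groups of proteins. It is known to raise several sets of protective genes through transcription factors that sense different kinds of damage. NRF2 is held down by KEAP1, whose reactive cysteines release it under oxidative or electrophilic stress, and it then switches on antioxidant enzymes, glutathione synthesis, iron storage and HMOX1, the heme oxygenase that degrades heme. HSF1 is freed when unfolded proteins occupy chaperones and drives the heat shock genes, among them HSPA6, an HSP70 that is nearly silent in unstressed cells. MTF1 senses free zinc and drives the metallothioneins, small cysteine-rich proteins that hold zinc, copper and cadmium. In neural progenitors, NOTCH signalling keeps cells dividing and undifferentiated by way of repressors such as HES5.

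Differences are on the scale of log2(TPM + 1), Arsenic minus non-toxic, and are printed with their SE from a limma fit with day as a factor and the compound as a random block. A gene rose or fell where its Benjamini-Hochberg adjusted p was under 0.05 over all 14836 genes tested, which are those with at least 1 TPM in at least 5 of the libraries. Of these, 4956 (33.4%) rose and 7825 (52.7%) fell, with a median difference of -0.19 over all tested genes. The spread in this fit comes mainly from the non-toxic libraries, so the printed SE says little of the spread among the 5 Arsenic libraries. Calls are frequent, and the cause of that was not tested. Counts in a gene list are read against the shares of 33.4% and 52.7%. Where it matters, a second limma fit to the 5 Arsenic day differences alone is given, which called 3210 genes higher and 5557 lower. In 2091 genes (14.1%) the Arsenic library was above every non-toxic library of its day on 5 of 5 days, and in 4381 genes (29.5%) it was below all of them. The same test applied to DMSO against the other 15 non-toxic compounds called 179 of 14424 genes (1.24%), with 1806 at an unadjusted p under 0.05.

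The Arsenic libraries stood apart in ways not tied to single genes. Genes with at least 10 TPM lay on median 0.23 to 0.65 log2 below the non-toxic mean of the same day, where single non-toxic libraries lay between -0.04 and 0.04. When each library was centred on the median of such genes, the median over all tested genes moved from -0.19 to 0.14, and the share of the calls that were higher moved from 38.8% to 57.0%, with 7343 genes higher and 5548 lower. Long transcripts were also under-represented: the slope of a library's deviation on log2 transcript length was between -0.24 and -0.05 in Arsenic and between -0.05 and 0.03 in the non-toxic libraries. With this slope as a covariate, 4586 genes were higher and 6131 lower. In Arsenic the slope was -0.12, -0.05, -0.17, -0.24 and -0.22 on days 1, 2, 3, 4 and 6. Each day holds 1 Arsenic library, so an effect of this slope cannot be fully told apart from change over days. The part of transcript length in the results was not tested beyond that fit. Where centring or the covariate turns a direction, this is given beside the result. Between 13654 and 14603 genes reached 1 TPM in an Arsenic library, against 13267 to 13546 in a non-toxic one.

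HMOX1 and HSPA6, genes of the oxidative and of the protein damage response, were low in every non-toxic library and high in every Arsenic library, and HES5, which marks progenitors, was the reverse. HMOX1 was at 8252, 4077, 3290, 2806 and 4036 TPM in the Arsenic libraries of days 1, 2, 3, 4 and 6. In the non-toxic libraries its lowest, median and highest values were 2.47, 5.34 and 10.86 TPM. The groups did not overlap, and on day 1 Arsenic was 2009-fold above the non-toxic mean. The difference was 9.37 ± 0.12 (limma adjusted p = 8.23e-76, and 2.2e-06 from the day differences alone), highest on day 1.

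HSPA6 was at 5566, 4704, 2697, 2016 and 437 TPM on the same days, against 0, 0.11 and 0.88 TPM as the lowest, median and highest of the non-toxic libraries. Its level was lower on each later day, and still far above every non-toxic library on day 6. The difference was 10.99 ± 0.15, with a limma adjusted p of 9.78e-06 from the day differences alone. Since the non-toxic values are near 0, this value depends on the constant added before the logarithm, and it was 13.57 with 0.1 in place of 1. HES5, a NOTCH target and progenitor marker, was at 8.43, 6.24, 2.80, 4.04 and 1.21 TPM, against 175, 259 and 316 TPM in the non-toxic libraries. All 5 Arsenic values lay far below that range, and the difference was -5.67 ± 0.09 (limma adjusted p = 1.72e-05 from the day differences alone). With the constant of 1, HES5 was the only called gene below -5, while 36 called genes were above 5. That rank also depends on the constant. With 0.1 HES5 was at -6.02, and MUSTN1 and OLIG3 were lower, at -6.45 and -6.31.

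**Figure D1:**
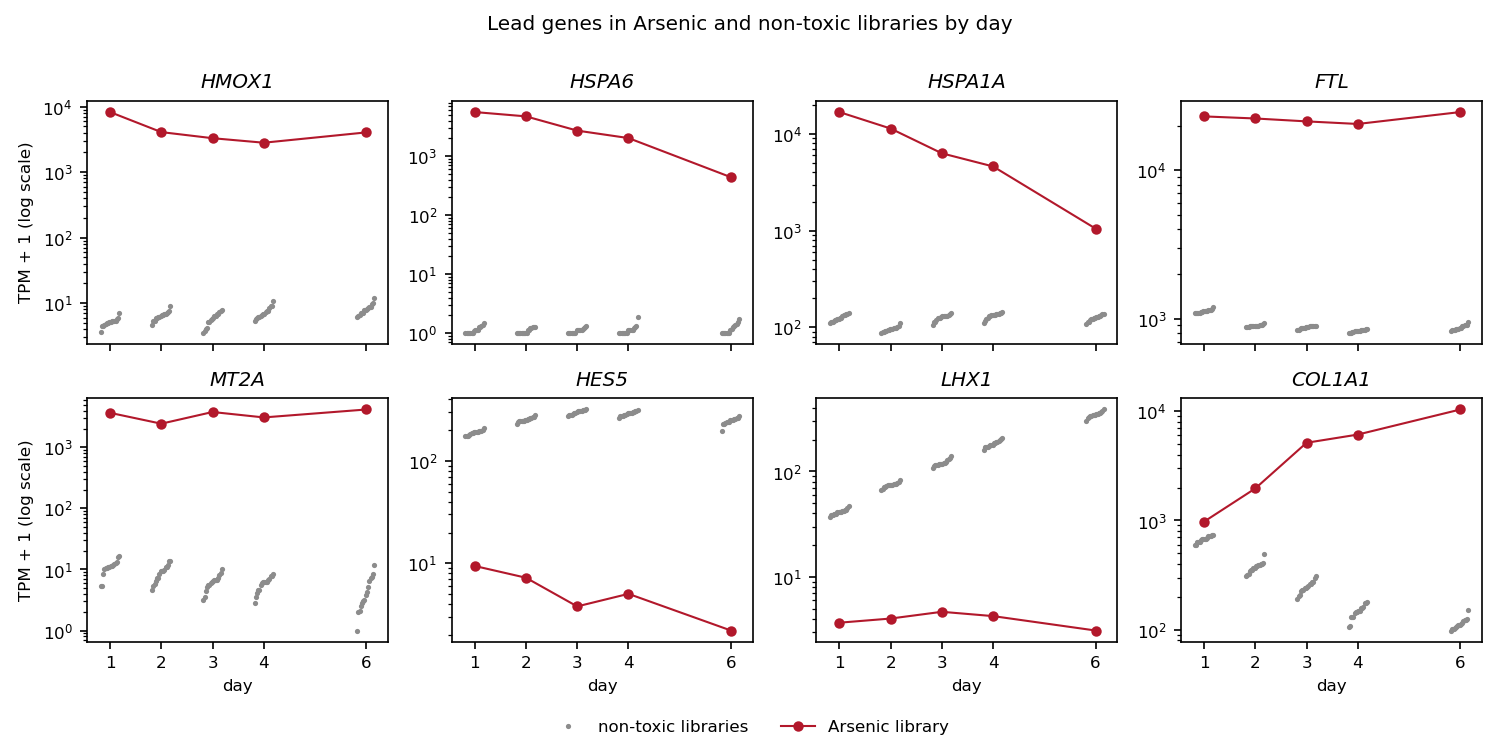
TPM + 1 on a log axis against day for the lead genes; each point is a library, with the 5 Arsenic libraries joined by a line and the non-toxic libraries behind them. HMOX1 stays between 2806 and 8252 TPM in Arsenic, HSPA6 goes from 5566 to 437 TPM, and HES5 stays at or under 8.43 TPM where no non-toxic library is under 174.5.

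All 25 heat shock chaperones and co-chaperones rose (background 33.4%), with a median difference of 1.96. In 21 of them Arsenic was above every same-day non-toxic library on 5 of 5 days (background 14.1%). HSPA1A, the main stress-inducible HSP70, was at 16896, 11403, 6317, 4616 and 1047 TPM, against 85.9, 122 and 143 TPM as the lowest, median and highest non-toxic values. It had the same order of days as HSPA6, without overlap, and its difference was 5.57 ± 0.14. HSPA1A has a near-identical copy, HSPA1B, so the split of reads between those 2 genes is uncertain.

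The small heat shock proteins, which hold unfolded proteins without using ATP, rose from lower levels. CRYAB, the small heat shock protein also known from the eye lens, was at 337, 707, 668, 650 and 261 TPM, and no non-toxic library exceeded 8.49. HSPB8, which works with BAG3 to send misfolded proteins to autophagy, was at 317, 220, 174, 141 and 81.1 TPM against a non-toxic maximum of 1.48. The differences were 7.76 ± 0.22 for CRYAB and 7.03 ± 0.12 for HSPB8. BAG3 itself, the co-chaperone partner, was at 918, 526, 403, 345 and 228 TPM against 8.44 to 22.65 in the non-toxic libraries (4.77 ± 0.07). Of the 5 chaperone genes described, only CRYAB did not have its highest value on day 1.

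The list as a whole drew closer to the controls. Its median difference was 2.87 on day 1, 2.59 on day 2, 1.73 on day 3, 1.41 on day 4 and 0.71 on day 6. A slope of the Arsenic difference per day was fitted for each gene, and 5034 genes (33.9%) had a called rising slope and 4599 (31.0%) a called falling one. All 25 chaperones were among the falling ones. For HSPA6 the slope was -0.76 ± 0.06 per day.

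Proximal promoters from RefSeq on GRCh38.p14 are shown for 3 of the heat shock genes described, because the stretch before each holds the motif that HSF1 reads. Each stretch covers the 160 bases before the annotated start, 5′ to 3′ on the plus strand, with matches to the heat shock element letters GAANNTTC or TTCNNGAA in capitals. They lie at chr1:161524380-161524539 for HSPA6, chr6:31815383-31815542 for HSPA1A and chr12:119178771-119178930 for HSPB8.
HSPA6: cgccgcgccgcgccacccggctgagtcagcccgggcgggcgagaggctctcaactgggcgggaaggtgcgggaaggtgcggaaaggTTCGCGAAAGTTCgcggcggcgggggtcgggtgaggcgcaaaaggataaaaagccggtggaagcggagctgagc
HSPA1A: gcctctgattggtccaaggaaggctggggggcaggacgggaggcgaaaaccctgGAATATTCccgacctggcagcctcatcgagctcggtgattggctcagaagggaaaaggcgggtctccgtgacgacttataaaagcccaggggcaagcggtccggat
HSPB8: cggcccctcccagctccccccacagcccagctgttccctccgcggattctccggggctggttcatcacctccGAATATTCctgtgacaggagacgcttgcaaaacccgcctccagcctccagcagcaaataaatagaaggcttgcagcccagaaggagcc
In HSPA6 both forms of the motif overlap, so that the capitals run on. Among the 250 bases before the start, searched on both strands, 10 of the 23 chaperone genes with an entry (43.5%) had a match, against 11.7% of all 27303 promoters of that length.

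All 30 tested NRF2 targets rose (background 33.4%), with a median of 2.43, and 27 of them were above every same-day non-toxic library on all days (background 14.1%). FTL, the light chain of the iron store ferritin, was the most abundant of those named, at 23133, 22396, 21406, 20567 and 24747 TPM. In the non-toxic libraries it was at 797, 884 and 1194 TPM as the lowest, median and highest. Its 5 Arsenic values lay close together, and the difference was 4.62 ± 0.02. NQO1, a quinone reductase and a standard readout of NRF2, was at 457, 515, 549, 508 and 567 TPM against 7.11, 11.26 and 40.38 TPM (5.06 ± 0.10).

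Other NRF2 targets were highest on day 1. OSGIN1, an oxidative stress gene, was at 450, 107, 51.2, 39.2 and 26.8 TPM, with a non-toxic maximum of 1.37. TXNRD1, the selenium-containing reductase that recharges thioredoxin, was at 1692, 939, 528, 401 and 375 TPM against 88.3 to 140. Both stayed above the non-toxic range throughout, at 5.70 ± 0.18 and 2.53 ± 0.07. SQSTM1, an autophagy receptor that also binds KEAP1, was at 1715, 1158, 864, 734 and 878 TPM against a non-toxic median of 74.5 TPM. Over the list, 16 slopes fell and 8 rose (background 31.0% and 33.9%), and the day medians ran from 2.90 on day 1 to a lowest value of 1.93 on day 4.

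The RefSeq stretch before TXNRD1, at chr12:104215619-104215778 on the plus strand of GRCh38.p14, is shown because it holds a match to the antioxidant response element, written as TGACNNNGC, in capitals.
TXNRD1: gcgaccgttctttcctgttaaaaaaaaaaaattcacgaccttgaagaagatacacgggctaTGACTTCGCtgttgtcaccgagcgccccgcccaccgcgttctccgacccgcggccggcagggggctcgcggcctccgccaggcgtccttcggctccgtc
Over the 250 bases before the start, 5 of the 22 NRF2 targets with an entry (22.7%) held such a match. Among all 27303 promoters 3013 held one, and among those of tested genes 11.7%. The match was not particular to the NRF2 targets. It was found in 21.7% of the heat shock chaperones with an entry and in 57.1% of the 7 metallothionein and zinc genes. Of the lists described below, it was in 23.1% of the immediate early genes and 15.8% of the ATF4 targets. Many known elements of this kind lie further upstream than the window.

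Of the 6 regulators of these programmes, 4 rose and 1 fell (background 33.4% and 52.7%). NFE2L2, which encodes NRF2, was at 167, 104, 83.4, 74.7 and 73.6 TPM against 18.6 to 34.0 in the non-toxic libraries (1.95 ± 0.05). KEAP1, its inhibitor, and BACH1, a heme-sensing repressor of HMOX1, were also above the non-toxic range of each day, at 0.63 ± 0.04 and 1.203 ± 0.05. MTF1 rose by 0.43 ± 0.05 and HSF2 fell by 1.01 on the log2 scale. HSF1, the heat shock regulator itself, was at 56.8, 88.6, 77.7, 83.3 and 99.9 TPM, within a non-toxic range of 66.1 to 98.3 on 3 of the days. Its difference of -0.09 ± 0.04 did not pass the test (limma adjusted p = 0.0566), and its direction and call moved with the scaling. HSF1 was at -0.31 with the length covariate and then called lower, and at 0.24 after centring and then called higher.

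The metallothioneins and the zinc exporter rose together. All 9 tested genes of the metallothionein and zinc export list rose (background 33.4%), with a median of 6.60. In 8 of them Arsenic was above every same-day non-toxic library on all days (background 14.1%). The summed TPM of the list was 3587 to 5534 in Arsenic and 21.7 to 41.6 in the non-toxic libraries. MT2A, the most abundant, was at 3680, 2443, 3796, 3094 and 4174 TPM against 0, 5.70 and 15.65 TPM as the lowest, median and highest non-toxic values. There was no overlap, and the difference was 9.003 ± 0.233.

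MT1E was at 491, 323, 446, 414 and 400 TPM and MT1X at 403, 508, 811, 713 and 551 TPM. No non-toxic library exceeded 1.04 TPM for MT1E or 19.58 TPM for MT1X. Their differences were 8.58 ± 0.11 and 6.73 ± 0.27, and that of MT1E was 11.61 with the smaller constant. Unlike the chaperones, MT1E and MT1X had no called slope over days. Of the 9 tested genes of the list, 3 had a called rising slope and 1 a falling one (background 33.9% and 31.0%). MT1F, MT1G, MT1H and MT1M also rose, by between 4.31 and 7.19. MT1A was at 1.97 TPM in the Arsenic library of day 2 and listed at 0 in the others, MT1B was listed at 0 in all 5, and neither was tested. The MT1 genes are close copies of each other, so how their reads were split is uncertain.

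MT3, the form known from neurons, was at 7, 12.33, 5.06, 9.40 and 14.03 TPM, inside the non-toxic range of 0 to 24.89. It was called at 0.73 ± 0.20, but not from the day differences alone (limma adjusted p = 0.0687). SLC30A1, the zinc exporter of the plasma membrane and an MTF1 target, was at 58.1, 57.0, 70.9, 45.6 and 46.9 TPM against 6.34 to 17.05 (2.17 ± 0.06).

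The promoters of MT2A and MT1X are printed because they carry several metal response elements, the sites read by MTF1, searched as TGCACNC or TGCGCNC on both strands and shown in capitals. Both are from RefSeq on GRCh38.p14, plus strand, at chr16:56608424-56608583 for MT2A and chr16:56682310-56682469 for MT1X.
MT2A: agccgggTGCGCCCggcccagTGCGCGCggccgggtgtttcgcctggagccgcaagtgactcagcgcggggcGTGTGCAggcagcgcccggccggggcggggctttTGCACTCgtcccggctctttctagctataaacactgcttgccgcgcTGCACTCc
MT1X: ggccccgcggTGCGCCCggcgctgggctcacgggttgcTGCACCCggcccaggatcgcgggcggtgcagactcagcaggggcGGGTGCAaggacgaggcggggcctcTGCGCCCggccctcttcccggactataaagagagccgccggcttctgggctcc
The stretch of MT2A holds 5 matches and that of MT1X 4. In the 250 bases before the start, all 7 genes of the list with an entry had a match, and 6 of the 7 had 2 or more. These shares were 24.7% and 5.61% among all promoters, and 33.0% and 8.29% among those of tested genes. MT1B, MT4 and SLC30A2 are among the 7 and were not tested for expression. A match was also found in 50.0% of the NRF2 targets and 30.4% of the chaperones with an entry. Of the lists described below, it was in 53.8% of the immediate early genes and 42.1% of the ATF4 targets.

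**Figure D2:**
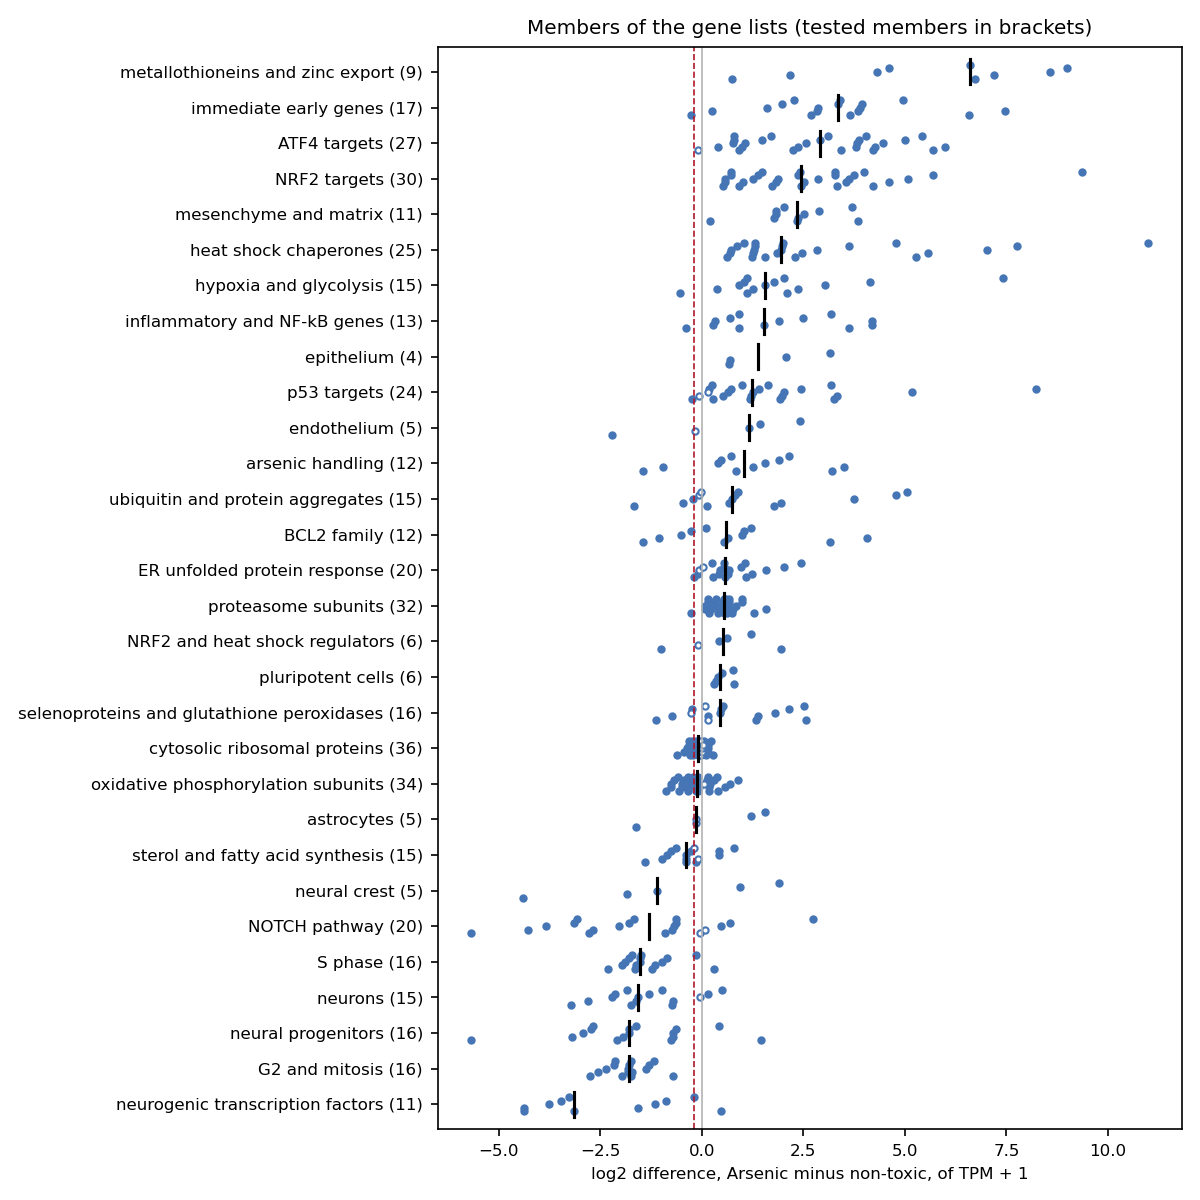
Log2 difference of TPM + 1, Arsenic minus non-toxic, for every tested member of the gene lists with at least 4 of them, 1 point per gene, with the number of tested members in brackets; filled points were called and open points were not, black bars are list medians, and the dashed line is the median of all tested genes, -0.19. The 25 chaperones, 30 NRF2 targets and 9 metallothionein and zinc genes all lie above 0, and the 16 mitosis genes all lie below it.

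Genes that take up, methylate, conjugate or export arsenic moved in both directions: of 12 tested, 10 rose and 2 fell (background 33.4% and 52.7%). Both that fell are methyltransferase genes. AS3MT, the enzyme that methylates arsenite, was at 14.44, 14.40, 16.14, 12.93 and 3.43 TPM, below the non-toxic minimum of 21.8 in every library. Its difference was -1.45 ± 0.07, and that of N6AMT1, a methyltransferase reported to act on a methylated arsenic species, was -0.96 ± 0.08. Both also fell from the day differences alone (limma adjusted p = 0.00199 and 0.000997).

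ABCC2, an export pump for glutathione conjugates, was at 20.5, 34.5, 21.8, 11.9 and 13.1 TPM against at most 1.62 in the non-toxic libraries (3.51 ± 0.09). ABCC1, a related pump, rose by 0.71 ± 0.06, but its day 1 library was below the non-toxic libraries of that day. AQP3, a glycerol channel that also passes arsenite, was at 13.3, 19.9, 14.4, 13.98 and 7.52 TPM against at most 1.98 (3.19 ± 0.12). The glutathione transferases of the list all rose, with GSTO1, which reduces pentavalent arsenic, at 124, 148, 151, 132 and 168 TPM against 17.4 to 63.3 (1.90 ± 0.08). GSTO2 rose by 1.56 ± 0.15 and GSTP1 by 0.47 ± 0.03. SLC2A1, a glucose transporter, was at 37.3 TPM on day 1, under the non-toxic libraries of that day, and at 278 TPM on day 6, where the non-toxic maximum over all days was 59.8. Its difference of 1.25 ± 0.11 was 0.23 with the length covariate and then not called.

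Genes of protein disposal rose in part, with the proteasome the more uniform. ZFAND2A, an arsenite-inducible partner of the proteasome, was at 3202, 1450, 778, 633 and 196 TPM against 15.6 to 41.9. Its level was lower on each later day and above every non-toxic library throughout, and its difference was 5.06 ± 0.16. Of the 15 genes of the ubiquitin and aggregate list, 10 rose and 3 fell (background 33.4% and 52.7%). HDAC6, a deacetylase that carries aggregates along microtubules, was at 24.4, 28.7, 41.5, 50.0 and 39.4 TPM, under a non-toxic minimum of 91.2 (-1.66 ± 0.03). UBQLN2 fell by 0.47 and ZFAND2B fell by 0.21 on the log2 scale, the latter with 0.12 after centring and not called with the length covariate.

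Of 32 proteasome subunits and assembly factors, 31 rose (background 33.4%), by a median of 0.55. PSMD12, a lid subunit, was at 268, 241, 186, 138 and 104 TPM against 43.6 to 73.2 (1.58 ± 0.06). POMP, an assembly chaperone, rose by 1.29 ± 0.03. The exception was PSMD4, a ubiquitin receptor of the proteasome, at -0.26 ± 0.03, which turned to 0.07 after centring.

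The amino acid and integrated stress programme driven by ATF4 rose almost completely. Of its 27 targets, 26 rose and none fell (background 33.4% and 52.7%), with a median of 2.90. In 25 of them Arsenic was above every same-day non-toxic library on all days (background 14.1%). ATF3, a stress-induced repressor, was at 363, 149, 156, 154 and 109 TPM against 1.45 to 7.28 (5.00 ± 0.11). CEBPB, a transcription factor that partners ATF4, was at 242, 122, 112, 121 and 110 TPM against at most 2.64 (6.00 ± 0.12). STC2, a secreted glycoprotein of stressed cells, had its highest value on day 6, at 207 TPM, and rose by 5.69 ± 0.10. NUPR1, a stress-responsive chromatin protein, rose by 5.41 ± 0.19. The list had 20 falling and 3 rising slopes (background 31.0% and 33.9%).

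The unfolded protein response of the endoplasmic reticulum was more mixed. Of 20 genes, 16 were higher and 2 lower (background 33.4% and 52.7%), with a median of 0.56. XBP1, a transcription factor of this response, was at 696, 226, 244, 218 and 172 TPM against 47.8 to 85.4 (2.02 ± 0.06). HERPUD1, part of the degradation machinery of that membrane, was at 281, 143, 152, 150 and 138 TPM against 24.1 to 38.4 (2.43 ± 0.06). Both had a day 1 library well above the other 4. ERN1, the sensor that splices XBP1, rose by 1.57 ± 0.09. The chaperones PDIA4 and HYOU1 were called lower, at -0.19 ± 0.09 and -0.09 ± 0.04, but neither direction held throughout. Without day 1 they were at 0.23 and 0.05 and after centring at 0.14 and 0.24, while with the length covariate they were at -0.99 and -0.34. Both calls were also lost without day 2, without the block and from the day differences alone. With the covariate, 11 genes of the list were higher and 5 lower.

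Genes that p53 is known to drive rose in 21 of 24 cases, and 1 fell (background 33.4% and 52.7%), with a median of 1.24. With the length covariate 17 were higher and 3 lower, and from the day differences alone 17 rose and 0 fell. In 13 of the 24 Arsenic was above every same-day non-toxic library on all days (background 14.1%). CDKN1A, the cell cycle inhibitor p21, was at 578, 754, 913, 942 and 961 TPM against 12.1, 20.8 and 43.6 TPM as the lowest, median and highest non-toxic values. GDF15, a secreted stress factor also under ATF4 control, was at 642, 351, 522, 513 and 565 TPM against at most 2.83. Neither gene overlapped with the controls, and the differences were 5.19 ± 0.09 and 8.24 ± 0.16. Here 21 of the 24 slopes rose and 1 fell (background 33.9% and 31.0%), the reverse of the chaperones. GADD45A, a growth arrest gene, was higher early, at 524 TPM on day 1 and 152 TPM on day 6 (3.33 ± 0.08), and PHLDA3, an inhibitor of AKT, rose by 3.26 ± 0.11. PLK3 was called lower at -0.24 ± 0.05 but was 0.10 after centring.

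The BCL2 family, which sets the threshold of the mitochondrial death pathway, gave 8 higher and 4 lower of 12 (background 33.4% and 52.7%). PMAIP1, the death-promoting NOXA, was at 197, 89.1, 71.6, 58.6 and 36.6 TPM against 1.15 to 6.72 (4.07 ± 0.13). HRK, another death-promoting member, was at 11.57, 8.99, 10.75, 11.94 and 10.05 TPM, with a non-toxic median listed at 0 and a maximum of 1.79 (3.17 ± 0.16). BBC3 and BAX rose by 1.204 ± 0.056 and 0.98 ± 0.06. The survival genes BCL2 and BCL2L1 fell by 1.46 and 0.52 on the log2 scale, with every Arsenic library under the non-toxic libraries of its day. With the length covariate BCL2 was at -0.39 and not called. The direction did not follow the role of the members throughout. BMF and BID, which promote death, were also called lower, at -1.06 ± 0.05 and -0.28 ± 0.05, and the survival gene MCL1 was called higher at 0.11 ± 0.03. BID was at 0.06 after centring, and neither BID nor MCL1 was called from the day differences alone.

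Immediate early genes, which are switched on within minutes in many cells, were high on every day. Of the 17 in the list, 16 rose and 1 fell (background 33.4% and 52.7%), with a median of 3.34. FOS was at 557, 619, 530, 480 and 171 TPM against 0.28 to 3.31 (7.46 ± 0.14). FOSL1, a related AP-1 subunit, was at 231, 159, 153, 127 and 90.2 TPM against at most 2.54 (6.59 ± 0.12). FOSB rose by 4.94 ± 0.08 and ZFP36, which destabilizes cytokine transcripts, by 3.95 ± 0.13. JUND was called lower at -0.26 ± 0.06 and was 0.07 after centring.

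Of 13 inflammatory genes, 12 rose and 1 fell (background 33.4% and 52.7%). LIF, a cytokine, was at 10.7, 13, 47.0, 43.1 and 53.5 TPM against at most 1.35 (4.18 ± 0.13), and IL11, of the same family, was at 50.6, 40.4, 36.2, 30.6 and 16.1 TPM against at most 2.14 (4.19 ± 0.13). The time order of these 2 was opposite. CXCL1, a chemokine, was at 1.68 TPM on day 1 and 29.7 on day 6, and ICAM1, an adhesion molecule, at 4.47 and 38.4 TPM. The one that fell was NFKBIA, the inhibitor of NF-kB, by 0.38 on the log2 scale, and after centring it was at -0.05 and not called.

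Hypoxia and glycolysis genes rose in 14 of 15 cases (background 33.4%), and only ENO2, the neuronal enolase, fell (-0.54 ± 0.03). ADM, the vasoactive peptide adrenomedullin, was at 238.9, 249.0, 288.9, 329.7 and 308.9 TPM against at most 2.23, a difference of 7.42 ± 0.14. NDRG1 was at 133, 129, 104, 93.9 and 125.7 TPM against at most 9.45 (4.15 ± 0.08). VEGFA, the vascular growth factor, rose by 3.04 ± 0.09. Of 16 selenoproteins and glutathione peroxidases, 10 rose and 3 fell (background 33.4% and 52.7%). SEPHS2, which makes the selenium donor, rose by 2.14 ± 0.07 and the secreted peroxidase GPX3 by 2.56 ± 0.09, while SEPN1 fell by 1.13 on the log2 scale.

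Averaged over days, housekeeping metabolism gave mostly small differences, and the balance of rises and falls depended on the scaling. The background before centring was 33.4% higher and 52.7% lower. Among 15 sterol and fatty acid genes, 3 rose and 10 fell, against 5 and 5 after centring and 0 and 12 with the length covariate. The sterol list changed over days, with medians of -0.82, -1.11, 0.21, 0.26 and 0.04 on days 1, 2, 3, 4 and 6. Its summed TPM was 1875 and 2000 on days 1 and 2, against non-toxic medians of 3467 and 4069. Of its 15 slopes, 13 rose and none fell (background 33.9% and 31.0%). Among 34 subunits of oxidative phosphorylation, 11 rose and 22 fell, against 21 and 9 after centring and 4 and 19 with the covariate. Among 36 cytosolic ribosomal proteins, 7 rose and 21 fell, against 28 and 2 after centring and 0 and 33 with the covariate. ATP5A1, a subunit of the ATP synthase, fell by 0.76 and RPL4, a ribosomal protein, fell by 0.36 on the log2 scale, and after centring RPL4 was at -0.03 and not called.

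Transcripts of dividing cells were low from day 1 on. Of 16 S phase genes, 15 fell and 1 rose, with a median of -1.52, and all 16 genes of G2 and mitosis fell, with a median of -1.80 (background 52.7% lower). MCM7, part of the replicative helicase, was at 113, 115, 96.5, 87.7 and 73.7 TPM, under the non-toxic range of 240 to 487 on every day, and differed by -1.97 ± 0.02. E2F1, a driver of S phase entry, was at 12.8, 21.9, 20.6, 16.6 and 9.78 TPM against 54.9 to 98.7 (-2.31 ± 0.04). CDC6, a replication licensing factor, went the other way at 0.30 ± 0.05, but not from the day differences alone (limma adjusted p = 0.0839).

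MKI67, the proliferation antigen Ki-67, was at 6.49, 25.9, 32.3, 26.03 and 13.2 TPM against 70.6 to 194 in the non-toxic libraries (-2.76 ± 0.09). TOP2A, which untangles replicated chromosomes, was at 17.3, 64.0, 77.2, 67.4 and 36.8 TPM against 171 to 373 (-2.57 ± 0.09). AURKB, a kinase of chromosome segregation, was at 8.49, 28.9, 27.6, 26.02 and 19.5 TPM against 54.4 to 172 (-2.36 ± 0.09). Day 1 was the lowest in all 3 of these genes. The median of the mitosis list was -2.78 on day 1 and between -1.35 and -1.96 afterwards, and 15 of its 16 slopes rose (background 33.9%).

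**Figure D3:**
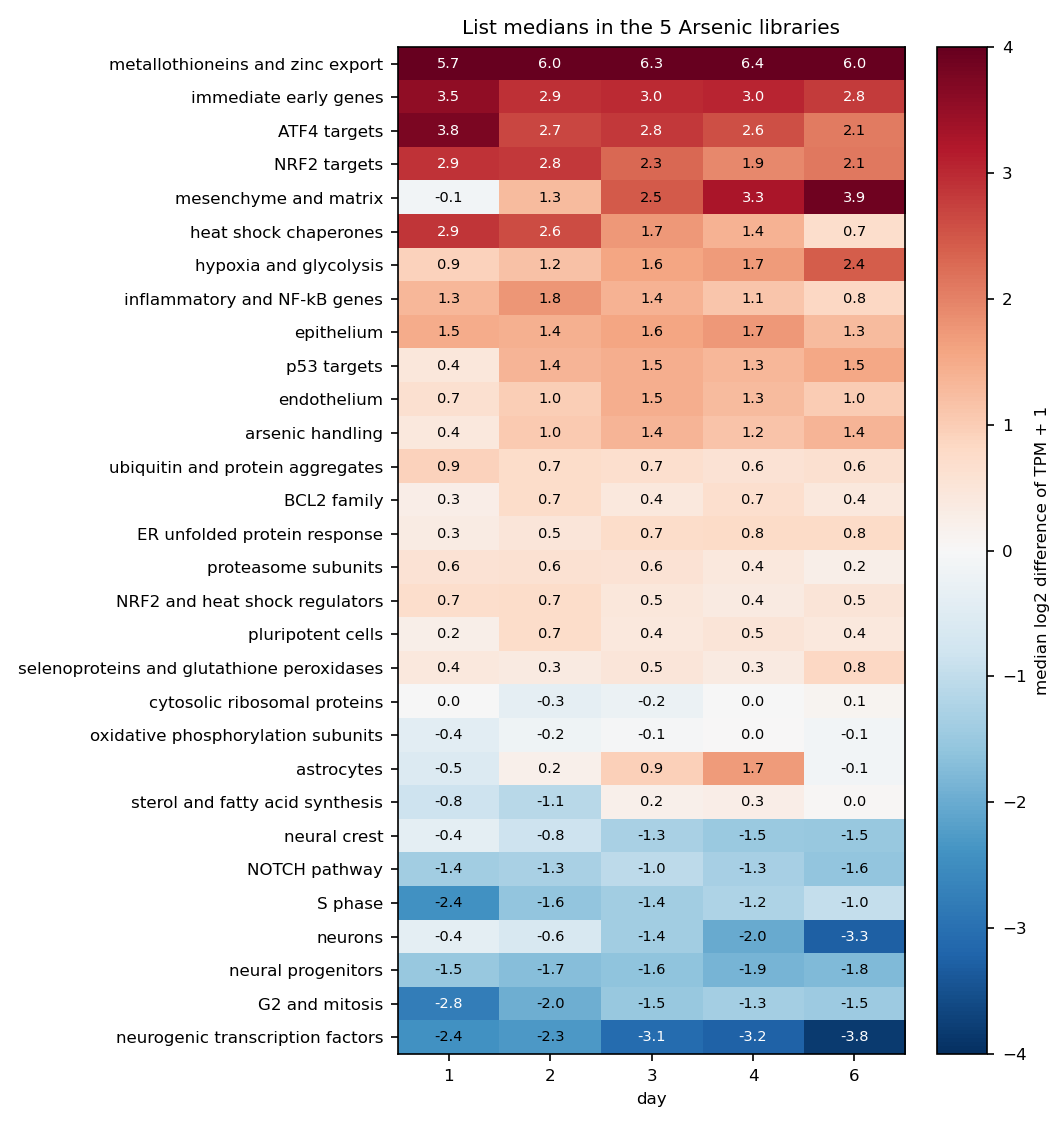
Median log2 difference of TPM + 1 of each gene list in the Arsenic library of each day, as a heat map with the values written in the cells; colours stop at 4 and -4. Heat shock chaperones go from 2.87 to 0.71, neuron genes from -0.39 to -3.28 and mesenchyme and matrix genes from -0.10 to 3.89, while the metallothionein list stays between 5.74 and 6.36.

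Most genes of the NOTCH pathway fell. Of 20 genes, 15 fell and 3 rose (background 52.7% and 33.4%), with a median of -1.30, and 14 were under every same-day non-toxic library on all days (background 29.5%). DLL3, an inhibitory ligand, was at 18.6, 28.7, 10.8, 12.1 and 1.53 TPM against 172 to 291 (-4.29 ± 0.13). HES6, which promotes neuronal differentiation, was at 108, 73.3, 69.8, 98.6 and 32.2 TPM against 745 to 1267 (-3.84 ± 0.08). MFNG, a sugar transferase that modifies NOTCH, fell by 3.15 on the log2 scale. HES1, a relative of HES5, went the other way, at 66.0, 81.5, 79.2, 94.5 and 71.3 TPM against 5.48 to 18.1 (2.73 ± 0.10). HEY1 and NOTCH2 were also called higher, but not from the day differences alone (limma adjusted p = 0.353 and 0.0740). HEY1 was at 0.01 without day 1, and NOTCH2 was not called with the length covariate.

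Of the 16 neural progenitor genes tested, HES5 among them, 14 fell and 2 rose (background 52.7% and 33.4%), with a median of -1.79. SOX3, a progenitor transcription factor, was at 19.3, 10.5, 8.14, 8.15 and 5.02 TPM against 52.8 to 144 (-3.202 ± 0.098). MSI1, an RNA-binding protein of neural stem cells, was at 73.3, 64.2, 60.9, 47.2 and 14.03 TPM against 218 to 371 (-2.73 ± 0.06). POU3F2 fell by 2.93 on the log2 scale. The values of HES5, SOX3 and MSI1 show that progenitor markers were present in every non-toxic library, as the label of the cells has it. VIM, an intermediate filament of progenitors and of mesenchyme, rose by 0.41 ± 0.04, but was at 0.12 and not called with the length covariate, and OTX2, a forebrain and midbrain factor, by 1.46 ± 0.14.

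Transcription factors that commit progenitors to neurons fell in 10 of 11 cases (background 52.7%), with a median of -3.15. NEUROD4, a proneural factor, was at 2.53, 2.63, 1.41 and 2.32 TPM and listed at 0 on day 6, against 38.9 to 65.4 (-4.38 ± 0.07). NEUROG2 fell by 3.76 and NHLH1 by 3.48 on the log2 scale. Regional factors were among the largest falls of all genes. LHX1 was at 2.69, 3.04, 3.68, 3.26 and 2.11 TPM, while the non-toxic mean climbed from 40.3 TPM on day 1 to 345 on day 6 (-4.92 ± 0.11). LHX5 and OLIG3, which pattern neural tube domains, fell by 4.998 and 4.70 on the log2 scale.

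Neuron genes parted from the controls with time. Of 15, 12 fell and 2 rose (background 52.7% and 33.4%), and 14 had a falling slope (background 31.0%). From the day differences alone, 8 fell and none rose. With the length covariate 8 fell and 4 rose, and the list median went from -1.57 to -0.55. The median difference was -0.39 on day 1, -0.64 on day 2, -1.39 on day 3, -2.02 on day 4 and -3.28 on day 6. DCX, a microtubule protein of young neurons, was at 28.2, 47.4, 36.6, 27.9 and 13.5 TPM against 112 to 358 (-2.81 ± 0.10). STMN2, of growing axons, was at 185, 211, 176, 136 and 77.1 TPM against 288 to 1445 (-2.20 ± 0.11), and ELAVL4 fell by 3.23 on the log2 scale. The neurofilament genes NEFL and NEFM were called higher, at 0.14 ± 0.04 and 0.49 ± 0.06, but not from the day differences alone (limma adjusted p = 0.278 and 0.0801). NEFM was at 264, 298, 270 and 220 TPM up to day 4, above all non-toxic libraries of those days, and at 104 TPM on day 6, below them.

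Connective tissue and matrix genes parted from the controls upwards with time. All 11 genes of the mesenchyme list rose (background 33.4%), with 9 rising slopes and no falling one (background 33.9% and 31.0%). From the day differences alone, 8 rose. The list median was -0.10 on day 1, 1.26 on day 2, 2.45 on day 3, 3.26 on day 4 and 3.89 on day 6. COL1A1, the main chain of fibrillar collagen, was at 973, 1959, 5126, 6093 and 10329 TPM, while its non-toxic day means went from 674 TPM on day 1 to 113 on day 6. The difference was 3.84 ± 0.21, and 1.74 with the length covariate. COL3A1, another fibrillar collagen, rose by 2.89 ± 0.20, from 671 TPM on day 1 to 3822 on day 6.

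With that covariate, 7 of the 11 were still higher and none lower. LUM and DCN, proteoglycans of collagen fibrils, were the exceptions with a turned sign, at 2.38 ± 0.28 and 1.78 ± 0.21 without it and at -0.09 and -0.35 with it. Neither was called from the day differences alone. TAGLN, an actin-binding protein of contractile cells, was high from day 1, at 1029, 719, 792, 997 and 837 TPM against 39.5 to 104 (3.69 ± 0.08). TWIST1, a mesenchymal transcription factor, was at 5.87, 8.27, 6.78, 13.5 and 14.1 TPM against at most 2.39 (2.51 ± 0.15).

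The 5 largest rising slopes of all genes belonged to LUM and to 4 other genes linked to matrix or stroma. ITGA11, a collagen receptor, was at 9.16, 87.1, 243, 312 and 473 TPM, with a slope of 1.49 ± 0.08 per day. ISLR, a mesenchymal surface protein, and OLFML3, a secreted matrix protein, had slopes of 1.47 ± 0.09 and 1.35 ± 0.09. LOXL4, a collagen cross-linking enzyme, was at 0.42, 2.85, 11.7, 28.03 and 132 TPM, and no non-toxic library exceeded 1.08 (1.31 ± 0.06 per day). All of them were inside or below the non-toxic range on day 1. The largest falling slopes belonged to genes whose level climbed over days in the non-toxic cultures and not in Arsenic. In all 5 of them Arsenic was above the non-toxic mean on day 1 and below it on day 6. ESRRB, an orphan nuclear receptor, went from 0.46 to 35.7 TPM in the non-toxic day means of days 1 and 6, and was at 2.83, 0.80, 1.19, 0.66 and 0 TPM in Arsenic (-1.32 ± 0.05 per day). CA8, NPTXR, PTGER3 and CALY had slopes between -1.15 and -1.07.

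Markers of other cell types that such cultures could hold moved in both directions. For all counts of these markers the background was 33.4% higher and 52.7% lower. Summed TPM of the mesenchyme list was 3476 to 20825 in Arsenic and 672 to 2797 in the non-toxic libraries. Of 5 neural crest genes tested, 2 rose and 3 fell, with a sum of 17 to 24.8 TPM against 68.2 to 277. TFAP2A, a crest and surface ectoderm factor, was at 4.57, 5.22, 4.41, 2.87 and 2.87 TPM against 42.5 to 244 (-4.41 ± 0.10), and SOX10, the defining crest factor, was at most 0.56 TPM in Arsenic. Of 5 endothelial genes 3 rose and 1 fell, with sums of 9 to 16.1 TPM against 3.08 to 16.95. All 4 epithelial genes tested rose, with sums of 65.1 to 115 TPM against 6.37 to 20.3, led by KRT18, a simple epithelial keratin, at 3.16 ± 0.13.

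All 6 pluripotency genes were called higher, 3 of them from the day differences alone, with overlapping sums of 41.0 to 69.4 TPM against 22.2 to 62.8. Of 5 astrocyte genes 2 rose and 1 fell, with sums of 118 to 415 TPM against 94.3 to 204. S100B and GJA1 were the 2 that rose, at 1.56 ± 0.12 and 1.2 ± 0.12, the latter at 0.04 and not called with the length covariate, whereas GFAP, the defining astrocyte filament, was at 0.75 to 4.56 TPM and did not pass the test. Of the endoderm list only GATA6 could be tested (1.83 ± 0.07), and its sum was at most 5.36 TPM. No microglia gene reached the filter, and TREM2 was listed at 0 in all 5 Arsenic libraries. The part of these other cell types in the results above was not tested.

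Set beside Cadmium on the same days, Arsenic was lower in most chaperones and metallothioneins and higher in most NRF2, p53 and mesenchyme genes. Of 14517 genes tested between the 2 metals, 5177 (35.7%) were higher in Arsenic and 2448 (16.9%) lower, against 3187 and 4532 after centring. List counts against Cadmium, and below against Lead acetate, were taken without centring. Of 25 heat shock chaperones, 19 were lower and 3 higher in Arsenic. HSPA1A was at 38688, 31995, 24244, 16548 and 13669 TPM in Cadmium, and the difference, Arsenic minus Cadmium, was -2.03 ± 0.30 on the log2 scale (limma adjusted p = 0.000408). HSPB8 was the opposite, at 21.5, 21.7, 15.4, 9.66 and 6.28 TPM in Cadmium and higher in Arsenic by 3.55 ± 0.14. Doses differed between the metals (5 µM and 50 µM), and every difference is between those doses.

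Of the 9 metallothionein and zinc genes, 8 were lower in Arsenic than in Cadmium and none higher (background 16.9% and 35.7%). MT2A was at 36752, 35993, 33799, 25049 and 18078 TPM in Cadmium, and the difference was -3.10 ± 0.21. MT1E was at 9661, 6412, 5330, 5007 and 6076 TPM there, and the difference was -3.94 ± 0.14. The differences of MT1G, MT1H and MT1M lay between -6.85 and -5.85. HSPE1-MOB4, a readthrough of the mitochondrial chaperonin gene HSPE1 whose reads cannot be told apart from it with certainty, was at 505 TPM on day 1 in Cadmium and between 0 and 4.01 TPM in Arsenic.

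NRF2 targets went the other way, with 26 of 30 higher in Arsenic and 1 lower (background 35.7% and 16.9%). FTL was at 4095, 4478, 3998, 4156 and 7885 TPM in Cadmium, lower than in Arsenic on each day, with a difference of 2.24 ± 0.14. NQO1 was at 55.9, 55.8, 39.2, 39.6 and 129 TPM, a difference of 3.15 ± 0.22. HMOX1 was closer, at 3056, 2408, 1971, 1596 and 2729 TPM and a difference of 0.86 ± 0.14. Of 24 p53 targets 22 were higher in Arsenic and 1 lower, with CDKN1A at 92.8 to 152 TPM in Cadmium (2.72 ± 0.11) and GDF15 at 46.0 to 59.3 TPM (3.25 ± 0.13).

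The mesenchyme genes were higher in Arsenic than in Cadmium in all 11 cases (background 35.7%). Neuron genes were lower in 13 of 15 and higher in none (background 16.9% and 35.7%). COL1A1 was at 476, 107, 34.9, 22.9 and 19.8 TPM in Cadmium, a series that ran down while that of Arsenic ran up. TAGLN was at 383 TPM on day 1 and 30.5 on day 6 (3.15 ± 0.39). TGFBI, a matrix protein, and CYP1B1, a cytochrome P450 enzyme, were among the 5 genes furthest above Cadmium, at 6.16 ± 0.89 and 5.90 ± 0.68. TAC3, a neuropeptide gene, was at 90.1, 119, 69.3, 54.3 and 116 TPM in Cadmium and at 2.38 TPM or less in Arsenic on 4 of the days, with 3.04 TPM on day 2.

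**Figure D4:**
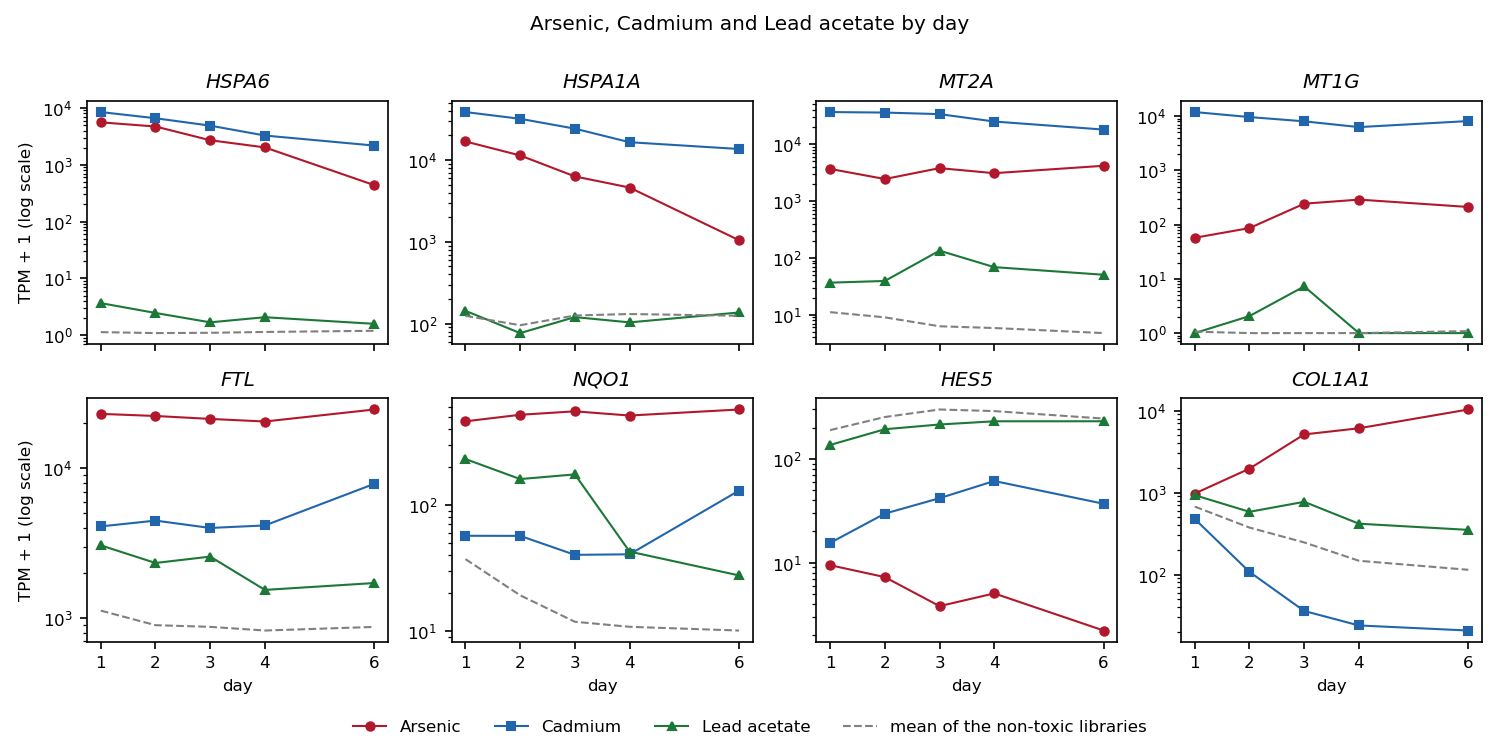
TPM + 1 on a log axis against day in Arsenic, Cadmium and Lead acetate, 1 library per point, with the mean of the non-toxic libraries of each day as a dashed line. Cadmium lies above Arsenic for HSPA1A and the metallothioneins, Arsenic lies above both metals for FTL, and COL1A1 runs from 973 to 10329 TPM in Arsenic and from 476 to 19.8 TPM in Cadmium.

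Lead acetate, at 30 µM, had few of the high stress transcripts. Against it, 2778 of 13948 genes (19.9%) were higher in Arsenic and 5043 (36.2%) lower. HMOX1 was at 48.8, 21.0, 37.5, 13.2 and 25.0 TPM in Lead acetate, a difference of 7.25 ± 0.18, and HSPA6 was at most 2.68 TPM (10.03 ± 0.37). HSPA1A was at 143, 75.7, 119, 103 and 136 TPM, inside the non-toxic range over all days but for day 2. It was also above the same-day non-toxic maximum of 137.76 on day 1 and below the minimum of 108.56 on day 4. Of 25 chaperones 23 were higher in Arsenic and none lower, as were 27 of 30 NRF2 targets, all 9 metallothionein and zinc genes and 22 of 27 ATF4 targets (background 19.9% higher and 36.2% lower).

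Some NRF2 targets were high in Lead acetate too, with FTL at 3060, 2332, 2573, 1541 and 1713 TPM and NQO1 at 229, 159, 173, 41.6 and 26.6 TPM. Both were above the non-toxic maximum on each of the days except NQO1 on day 6. The differences from Arsenic were 3.37 ± 0.15 and 2.46 ± 0.47. MT2A was at 35.8, 38.4, 134, 68.0 and 49.7 TPM, also above the non-toxic maximum of 15.65, and Arsenic was higher by 5.85 ± 0.25. The genes furthest above Lead acetate included CRYAB, FOS and RRAD, a small GTPase (7.07 ± 0.30), and those furthest below included HES5, MUSTN1, MASP1, RPRML and TAC3.

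Among all 44 compounds with at least 3 libraries on these days, Arsenic had the highest mean HMOX1 difference, 9.37, followed by Cadmium at 8.50 and Okadaic acid at 3.55. It was second to Cadmium in HSPA6, with 10.99 against 11.98, and in the medians of the chaperone and metallothionein lists. Its NRF2 and ATF4 list medians were the highest of the 44, and its p53 list median was the fifth. For HES5 it was second lowest, next to Cytosine Beta-D-arabinofuranoside, which blocks DNA synthesis, at -5.70. All these values share the non-toxic libraries as controls and are given side by side as a description.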

How the data were processed

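RNA of 5 Arsenic and 79 non-toxic libraries was compared, with 5 libraries each of Cadmium and Lead acetate. The authors deposited TPM per gene; RSEM 1.2.1, Bowtie 0.12.8, CASAVA 1.8.2 and hg19 are named in the submitters' processing notes. TPM totals are equal by construction, so depth gives no interval here. Values were taken as log2(TPM + 1), and the 14836 of 19084 genes that reached 1 TPM in 5 or more libraries were fitted in limma 3.58.1 (R 4.3.3) with an intensity trend, day as a factor and a random block per compound (correlation -0.0618, estimated on every 8th gene). This correlation is negative, so the block did not widen the SE of Arsenic. Without the block, 143 of the 145 genes described kept their call and 2 lost it. Pairs of metals were fitted with day as a factor. The script was tested on simulated data. Summaries used python 3.11.15, numpy 2.4.6, pandas 2.3.3 and matplotlib 3.10.9.

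No 2 libraries were identical (highest correlation between Arsenic libraries 0.9895). Transcript lengths from GENCODE matched 9273 of the 9971 genes whose mean reached 10 TPM (93.0%), and RefSeq promoters matched by symbol.

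Genes named are HMOX1, HSPA6 and HES5, the 10 largest differences each way with at least 5 TPM and 1 sign on 5 of 5 days, up to 4 per list with members against its majority, all members of short lists, and the 5 largest each way for slopes and pairs; a few others were chosen after their values were seen. A few genes that the rule names are not reported here. The members, lists and tests were chosen with earlier results of these data known. Alternatives were a constant of 0.1, other filters, centring, no trend, no block, a length covariate, DMSO as the only control, grouped days and leaving out each Arsenic library with the other libraries of its day. The day differences alone were added after seeing the data.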

Additional observations from a re-analysis of the deposited data

Results flagged for a closer look

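In 16 of the 145 genes described, 1 Arsenic library lay far from the other 4 by its log2 difference from the non-toxic mean of its day, past the 95% critical value of Dixon's test. Chance flags about 1 in 20 groups of 5, and the genes are not independent of each other. On day 1 the proliferation genes MKI67, TOP2A and AURKB were far below the other days, at -4.59, -4.32 and -4.09, as was ATP5A1 at -1.30. On the same day HERPUD1 (3.27), XBP1 (3.16), CEBPB (6.41), VEGFA (3.55), MT1F (7.90) and BBC3 (1.41) were far above the other days.

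On day 6, AS3MT was at -2.69, MSI1 at -3.98 and NEUROG2 at -5.24, each far below the other days. FOS (6.19), FOSB (4.04) and GPX3 (1.61) were also lower on day 6 than on days 1 to 4, while all 3 stayed above the controls.

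For 13 genes the difference between Arsenic and the non-toxic compounds changed over days by a called slope in limma. Rising slopes per day were 1.55 for LUM, 1.49 for ITGA11, 1.47 for ISLR, 1.35 for OLFML3 and 1.31 for LOXL4. Falling slopes were -1.32 for ESRRB, -1.15 for CA8, -1.10 for CALY, -1.07 for NPTXR and -1.07 for PTGER3, all of which were at higher levels on day 6 than on day 1 in the non-toxic cultures. The slopes of HSPA6, HES5 and HMOX1 were -0.76, -0.46 and -0.30.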

How the results depend on the processing

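No paired analysis was possible because the labels give no replicate numbers; libraries were matched by day, as a factor in the fits or as same-day differences. Beside the 4956 genes called higher than in the non-toxic libraries, the fit with DMSO as the only control called 3011 higher and that of the day differences alone 3210. Leaving out 1 Arsenic library, with the other libraries of its day, gave 4622 to 5104 higher and 7371 to 7943 lower. Rising slopes numbered 1718 and falling slopes 1984 from the day differences alone. Leaving out 1 day gave 2688 (without day 1) to 5676 rising and 3252 to 5443 falling slopes. Against Cadmium, centring gave 3187 higher and 4532 lower, and leaving out 1 day gave 3905 to 5292 higher and 1903 to 2537 lower. Against Lead acetate that range was 2161 to 3156 higher and 4081 to 4970 lower. The counts say nothing of which genes were shared.

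Among 145 genes described, centring turned 7 called directions (BID 0.0554, HYOU1 0.24, JUND 0.0738, PDIA4 0.14, PLK3 0.10, PSMD4 0.0728, ZFAND2B 0.12). Leaving out day 1 turned 2 (HYOU1 0.0507, PDIA4 0.23), and over the 5 days left out in turn HYOU1 ran from -0.185 to 0.0507 and PDIA4 from -0.375 to 0.23. The length covariate turned 4 (DCN -0.35, ESRRB 0.68, LUM -0.0857, NPTXR 0.90). The cause was not tested. Genes not called also changed sign, and HSF1 was at 0.2424 after centring and then called. From the day differences alone 17 genes missed the threshold, most of those just listed among them, and 17 of the 143 tested did with DMSO as the only control. The slope of HMOX1 was -0.10 per day without day 1 and then not called (limma adjusted p = 0.420). All 23 genes described against Cadmium and all 20 against Lead acetate kept their direction and call under every alternative run for those pairs. The fit borrows its spread mainly from the controls, and each day holds 1 Arsenic library, so a library cannot be told apart from its day.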
